A study of Mus musculus with 47 samples.

Results

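Myelin and oligodendrocyte genes were described in a mouse model of Huntington's disease across striatum, cortex and cerebellum. The group held 32 genes, chosen by name for what they encode: proteins of the myelin sheath, enzymes that make myelin lipids, transcription factors, gap junctions, and other products of oligodendrocytes. Of the 32, 31 had a probe on the arrays, out of 19596 genes and unnamed probes in all, and Myrf was not analysed here. Where a gene had several probes, the one with the highest mean over all arrays stood for it, which applied to Mog, Mal, Car2 and Ndrg1.

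Oligodendrocytes wrap axons in myelin, a stack of membrane rich in lipids and in a small set of proteins, and myelin lets axons conduct quickly. Galactolipids make up a large part of the membrane, and several enzymes act one after another in making them. Transcription factors of the Sox and Olig families set up the oligodendrocyte lineage, and Myrf then drives the myelin genes. In Huntington's disease white matter is also affected, and mutant huntingtin is present in oligodendrocytes as in neurons.

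The arrays measured total RNA of R6/2(300Q) transgenic mice and of wild-type mice on a mixed CBA and C57BL/6 background. The R6/2 transgene carries the first exon of human huntingtin with an expanded CAG repeat, under the human huntingtin promoter. Some mice of both genotypes drank the histone deacetylase inhibitor 4b, dissolved at 1 mg/ml, over 67 days beginning at 4 months of age, and the others were controls. This gave 12 groups of region, genotype and treatment, with 4 arrays in 11 groups and 3 in the wild-type control cerebellum group, 47 arrays in all. Males and females were in every group, but not evenly. The transgenic 4b group of each region had 3 females and 1 male. The other groups of 4 had 2 of each sex, and wild-type control cerebellum had 1 female and 2 males. The labels do not say that arrays of a group came from separate mice, and the p-values cover only their spread, which may be technical. Regions of the same mouse may also be among them.

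The arrays were 1-colour Illumina bead arrays, and the deposited intensities had array medians from 122.2 to 289.3 before normalization. The levels below are log2 intensities after background correction and quantile normalization, and levels of different probes are not compared with each other. Probes of Y-linked genes on female arrays averaged 6.30 with an SD of 0.20 over 78 values and reached 6.75, which served as the background. Region labels were borne out by markers fixed for them: in wild-type controls all 16 measured striatal projection neuron genes were higher in striatum than in cortex, and 11 of 13 granule neuron genes were higher in cerebellum than in cortex. The wild-type control cerebellum array 1 stood apart from arrays 2 and 4 of its group. Its choroid plexus list lay 1.22 above the regional mean and its granule neuron list -0.41 from it. These were -0.13 and 0.29 on array 2, and -0.90 and -0.02 on array 4. Choroid plexus was as high in other cerebellar groups, at 1.37 on transgenic 4b array 3 and on wild-type 4b array 4. The granule neuron value of wild-type control array 1 was the lowest of all cerebellar arrays. Its striatal projection neuron list stood at 0.40, against at most 0.23 on the other cerebellar arrays. Results that rest on wild-type control cerebellum array 1 are therefore also given without it where it moves them.

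Sequences upstream of the transcription start were available for 20 of the 32 genes (RefSeq, GRCm38.p6). Upstream sequences of 3 genes that the results turn on are shown, 250 bases before the start, 5′ to 3′ on the gene's own strand. Ugt8a (chr3:125938653-125938902, minus strand) had the widest genotype difference in cerebellum averaged over treatments, Mobp (chr9:120149492-120149741, plus strand) differed by genotype in striatum and cerebellum, and Opalin (chr19:41077114-41077363, minus strand) had the widest differences between regions. Capitals mark ACAAAG, a core recognised by Sox proteins, and GGGCGG, the GC box, each on either strand, and overlapping matches run together.
Ugt8a: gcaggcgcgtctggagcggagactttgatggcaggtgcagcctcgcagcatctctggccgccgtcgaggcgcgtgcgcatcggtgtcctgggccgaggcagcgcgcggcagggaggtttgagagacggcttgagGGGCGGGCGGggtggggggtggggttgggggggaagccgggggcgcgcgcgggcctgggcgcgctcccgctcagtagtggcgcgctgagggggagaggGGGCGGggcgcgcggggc
Mobp: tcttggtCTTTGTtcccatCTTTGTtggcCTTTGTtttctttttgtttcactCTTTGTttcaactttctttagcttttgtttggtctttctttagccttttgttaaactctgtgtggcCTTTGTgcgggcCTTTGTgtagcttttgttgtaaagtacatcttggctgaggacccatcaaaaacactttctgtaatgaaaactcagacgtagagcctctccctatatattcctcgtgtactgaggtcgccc
Opalin: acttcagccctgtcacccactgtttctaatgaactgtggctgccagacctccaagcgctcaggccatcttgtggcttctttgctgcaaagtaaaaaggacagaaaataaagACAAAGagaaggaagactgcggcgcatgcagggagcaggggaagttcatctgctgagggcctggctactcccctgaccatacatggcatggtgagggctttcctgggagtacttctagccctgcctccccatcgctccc
The Mobp window held 6 matches to ACAAAG or its reverse complement, the Opalin window held 1, and the Ugt8a window held 0. The Ugt8a window held 3 matches to GGGCGG, and the windows of Mobp and Opalin held 0. ACAAAG was in the windows of 7 of the 20 genes and of 18.6% of 27025 genes, GGGCGG in 9 of 20 and 35.4%, and CTGGCAC, a core recognised by Myrf, in 3 of 20 and 4.83%. The 3 with CTGGCAC were Cnp, Lpar1 and Mag. These matches describe letters in the windows only.

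Not all the genes gave a signal above background. Aspa, which encodes the enzyme that releases acetate from N-acetylaspartate, lay between 5.67 and 6.63 on the 47 arrays, and Ermn, a cytoskeletal protein of the myelin sheath, between 5.89 and 6.51. Gpr37, an orphan receptor of oligodendrocytes, lay between 6.15 and 6.77. A filter on dim probes removed these 3 in every region and Gjc3, a gap junction protein, in cortex, which left 28 genes tested in striatum, 27 in cortex and 28 in cerebellum. At the other end Mbp, myelin basic protein, lay between 14.47 and 14.92 on arrays whose brightest feature was at 15.05. Its room to differ upward was therefore small, and whether downward differences were also compressed was not tested.

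The first comparison asked how the genes differed between regions in wild-type control mice. Striatum was the highest region for 23 of the 28 genes by group mean, cortex the lowest for 16 and cerebellum the lowest for 12. Against cortex, 14 of 28 genes were called higher in striatum and 0 lower, where a call is a Benjamini-Hochberg adjusted p below 0.05 in limma. Over all features 30.3% were called, 14.7% higher, and without wild-type control striatum array 2 the 14 became 9. The median difference of the 28 was 0.50, against 0.01 over all features. The widest were Trf, the iron carrier transferrin, at 0.96 ± 0.18 (SE; adjusted p = 2.73e-05), and Mal, a raft protein of myelin, at 0.94 ± 0.15.

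**Figure D1:**
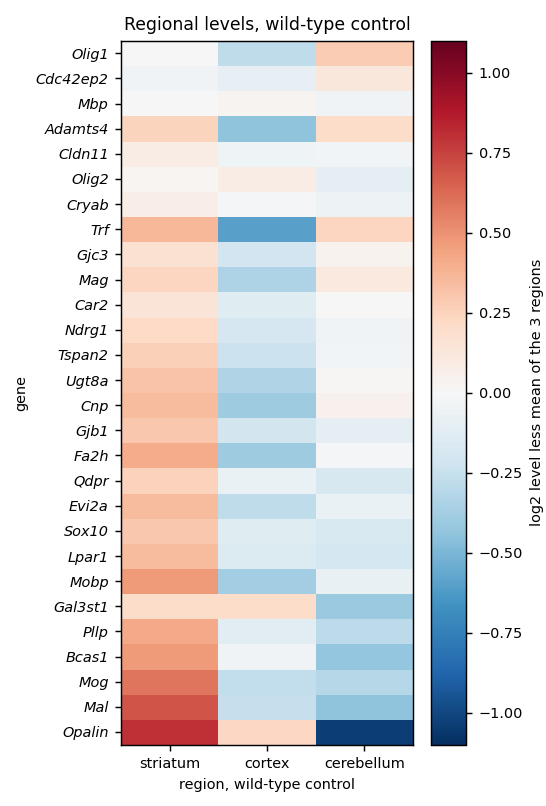
Group means of the 28 genes in the wild-type control groups, as log2 level less the mean of the 3 regions (colour), one row per gene and one column per region. Most rows are reddest in striatum, with Opalin, Mal and Mog showing the strongest contrast to cerebellum, whose columns rest on 3 arrays.

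Opalin, a transmembrane glycoprotein of oligodendrocytes in the central nervous system, had the widest spread between regions. In wild-type controls it read 10.83, 12.02, 11.50 and 10.86 in striatum. It read 11.24, 10.66, 10.65 and 10.36 in cortex. In cerebellum it read 10.03, 9.39 and 8.98. All cerebellar arrays lay below all striatal and cortical arrays, and striatum and cortex overlapped. The difference between cerebellum and striatum was -1.84 ± 0.43 (SE; limma adjusted p = 0.000471), and that between cerebellum and cortex was -1.26 ± 0.43 (limma adjusted p = 0.0157). The latter call was lost without wild-type control cerebellum array 4, without wild-type control cortex array 1 and with the BeadChip, the slide that holds the arrays, as a block. The 0.58 between striatum and cortex was not called (limma adjusted p = 0.3).

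In wild-type controls no BeadChip held cerebellum together with striatum or cortex. Contrasts of cerebellum in these groups could therefore not be read within a BeadChip. Between cerebellum and striatum 11 of 28 genes were called lower in cerebellum and 0 higher, where 44.2% of all features were called and 21.5% were lower. After Opalin came Mal at -1.13, Mog at -0.91, Bcas1 at -0.89 and Pllp at -0.70. Mog is a surface protein of the outermost myelin layer, Bcas1 a marker of oligodendrocytes that have begun to make myelin, and Pllp a tetraspan protein of the sheath. Sox10, the transcription factor that the lineage needs, was among the 11 at -0.47. The count fell from 11 to 4 without wild-type control cerebellum array 4, to 5 without array 2, and to 6 or 7 without wild-type control striatum array 2 or 3. It was 12 without the cerebellar array 1, and the median went from -0.30 to -0.46. Between cerebellum and cortex 4 genes were higher in cerebellum, Trf (0.83), Cnp (0.44), Mag (0.44) and Fa2h (0.38), and 2 were lower, Opalin and Gal3st1 (-0.61). Over all features 42.6% were called there, 21.6% higher and 21% lower, so 6 of 28 is below the background share. Without wild-type control cerebellum array 1, Cnp (0.36), Mag (0.23) and Fa2h (0.31) lost their calls, Gal3st1 went to -0.94 and the median of the 28 went from 0.12 to -0.05. Of the 7 fits that each left out 1 array, the call of Fa2h was lost in 5, that of Gal3st1 in 3 and that of Mag in 2. Cnp encodes a phosphodiesterase of non-compact myelin, Mag an adhesion protein of the inner sheath and Gal3st1 the enzyme that sulfates galactolipids.

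The higher level in striatum was present by group means in every genotype and treatment. Striatum exceeded cortex for 25 of 28 genes in wild-type controls, 24 in wild-type mice on 4b, 25 in transgenic controls and 28 in transgenic mice on 4b. Cerebellum lay below striatum for 26, 23, 25 and 27 of the 28 in the same order.

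The second comparison asked how transgenic mice differed from wild-type mice, averaged over control and 4b arrays. In cerebellum 12 of 28 genes were called lower in transgenic mice and 0 higher, while 5.25% of all features were called, 2.93% lower and 2.32% higher. The median difference of the 28 was -0.37, against 0.02 over all features, and 26 of the 28 differences were negative. In striatum 4 genes were lower and 1 higher, with 7.22% of all features called lower and 6.46% higher (13.7% in all), and the median was -0.04. The striatal calls fell from 5 to 3 when transgenic control array 1 or 4, wild-type 4b array 2 or wild-type control array 4 was left out. In cortex 3 of 27 genes were lower and 0 higher, with 7.7% of all features called lower and 5.87% higher (13.6% in all), and the median was -0.10. In whole tissue, fewer cells of a type and less RNA per cell cannot be told apart.

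**Figure D2:**
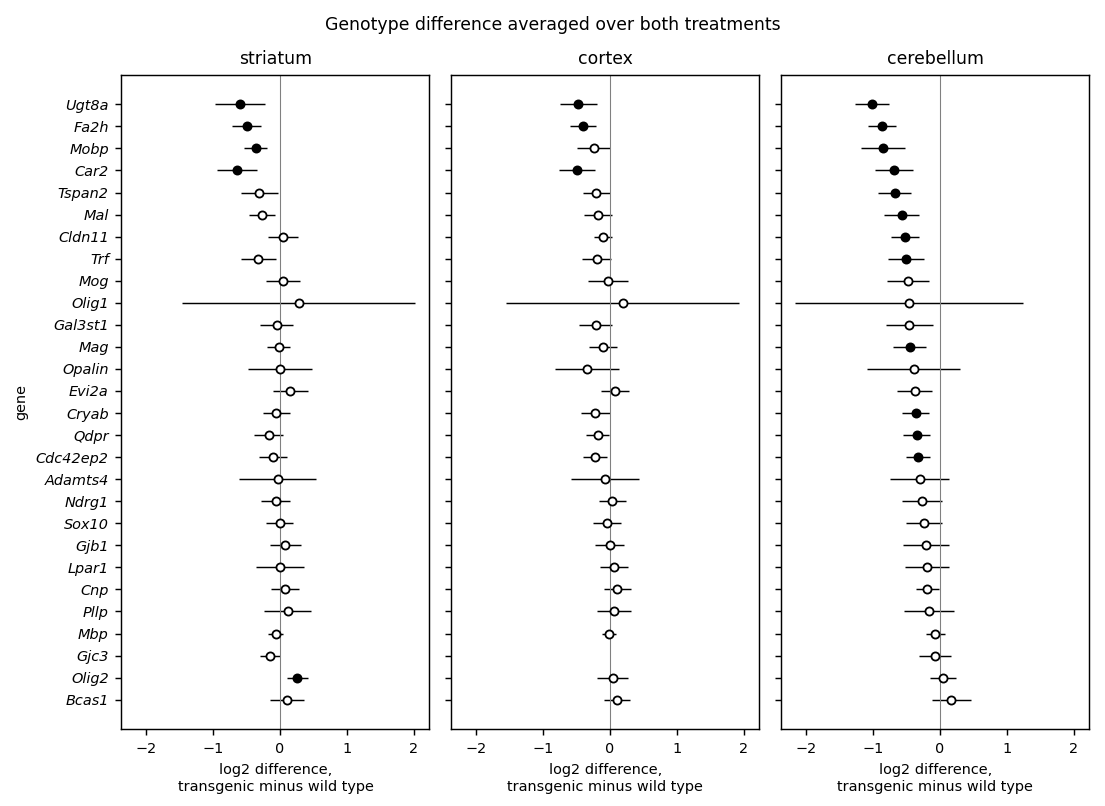
Log2 difference of transgenic minus wild type averaged over both treatments (x axis) for each tested gene (rows, ordered by cerebellum), with 95% confidence intervals from limma as lines, in one panel per region. Filled points are the calls, 12 in cerebellum, 5 in striatum and 3 in cortex, and the intervals of Olig1, which read low on 11 arrays, are the widest.

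Ugt8a adds galactose to ceramide and makes galactosylceramide, and Fa2h puts the hydroxyl group on the fatty acid of these lipids. Of the 3 tested genes of myelin lipid and acetate metabolism, these 2 were called lower in each of the 3 regions. The remaining one, Gal3st1, gave -0.45 in cerebellum, -0.21 in cortex and -0.05 in striatum, with no call.

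Ugt8a in cerebellum read 11.52, 10.87 and 11.10 on the wild-type control arrays, and 10.79, 11.01, 10.89 and 10.68 on the wild-type 4b arrays. The transgenic control arrays read 10.21, 10.16, 10.26 and 9.93, and the transgenic 4b arrays 9.48, 10.14, 9.67 and 10.12. No transgenic array reached the lowest wild-type array. The difference was -1.01 ± 0.12 (SE; limma adjusted p = 0.000275), and -0.92 without wild-type control array 1. In striatum the difference was -0.59 ± 0.18 (limma adjusted p = 0.0358), with transgenic arrays from 9.97 to 11.32 and wild-type arrays from 10.75 to 11.90, and the call was lost in 9 of the 16 fits that each left out 1 array. In cortex it was -0.47 ± 0.13 (limma adjusted p = 0.0237), with transgenic arrays from 9.72 to 10.86 and wild-type arrays from 10.65 to 11.07, and the call was lost without transgenic control array 4 and with the BeadChip as a block. The genotypes overlapped in both of these regions.

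Fa2h in cerebellum read 11.90, 11.88 and 11.53 on the wild-type control arrays and 11.17, 11.40, 11.52 and 11.45 on the wild-type 4b arrays. It read 11.16, 10.78, 10.80 and 10.58 on the transgenic control arrays and 10.36, 10.62, 10.67 and 10.74 on the transgenic 4b arrays. The highest transgenic array lay just under the lowest wild-type array. The difference was -0.87 ± 0.10 (SE; limma adjusted p = 0.000209). It was -0.50 ± 0.10 in striatum (limma adjusted p = 0.00414) and -0.40 ± 0.09 in cortex (limma adjusted p = 0.00694), with overlap between the genotypes in both. The striatal call was lost with arrays scaled by their medians.

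Car2, the cytosolic carbonic anhydrase found in oligodendrocytes, was the other gene called lower in all 3 regions. In striatum wild-type arrays ran from 12.02 over a median of 12.25 to 12.76, and transgenic arrays from 11.20 over 11.57 to 12.31. In cortex wild-type arrays ran from 11.86 over 12.16 to 12.22, and transgenic arrays from 11.15 over 11.80 to 11.97. In cerebellum wild-type arrays ran from 11.57 over 11.85 to 12.65, and transgenic arrays from 10.63 over 11.32 to 11.74. The genotypes overlapped in each region. The differences were -0.64 ± 0.14 in striatum, -0.49 ± 0.13 in cortex and -0.69 ± 0.13 in cerebellum (SE; limma adjusted p = 0.00611, 0.0158 and 0.00695), and the cortical call was lost with the BeadChip as a block. A second, dimmer Car2 probe gave -0.50, -0.22 and -0.17 in that order. Genes called lower in all 3 regions numbered 3 of the 27 tested in each, Ugt8a, Fa2h and Car2, against 0.609% of the 11327 features tested in each.

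**Figure D3:**
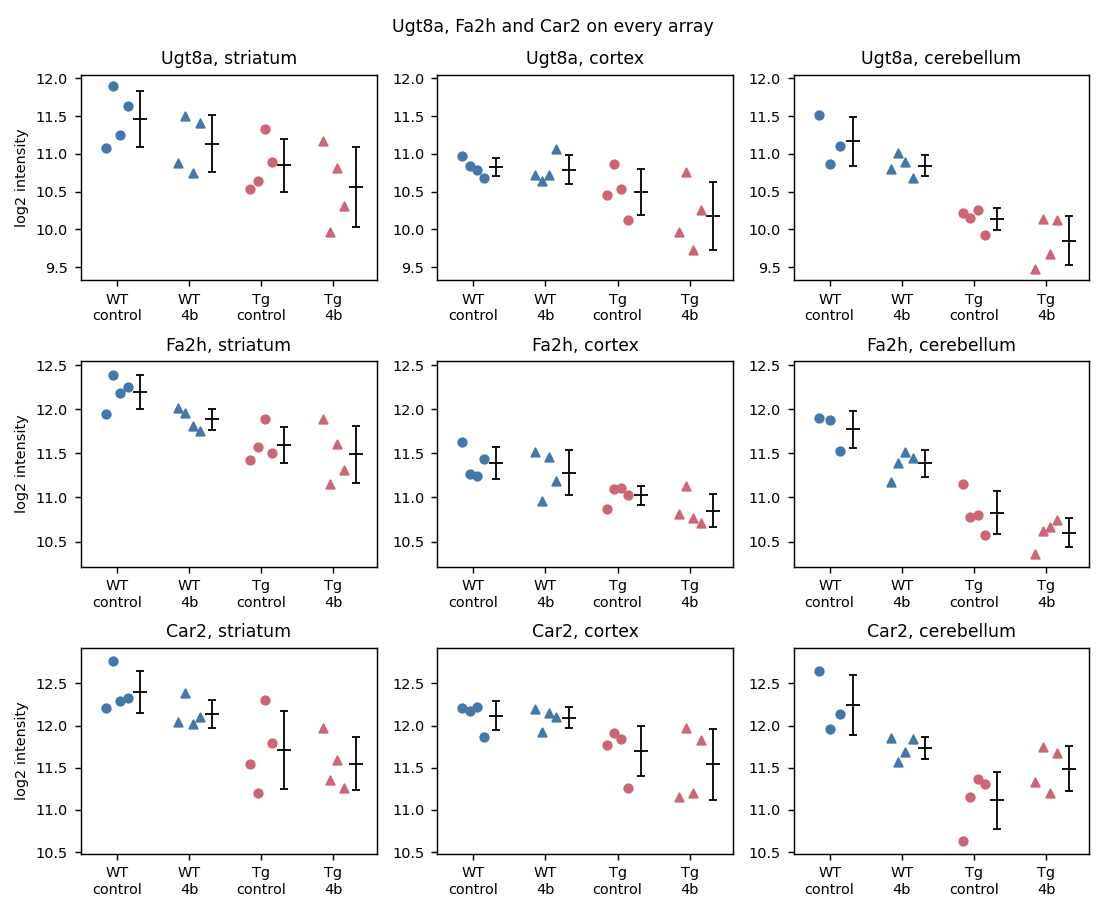
Log2 intensity (y axis) of Ugt8a, Fa2h and Car2 (rows) on every array of the 4 genotype and treatment groups (x axis; WT wild type, Tg transgenic; circles control, triangles 4b) in each region (columns), with the group mean and SD as black bars. In cerebellum the transgenic Ugt8a and Fa2h points all lie below the wild-type points, while Car2 overlaps.

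Of the 10 tested proteins of compact myelin and the sheath, 5 were called lower in cerebellum: Mobp, Tspan2, Mal, Cldn11 and Mag. Of all features 2.93% were called lower there, and the call of Mag was lost without wild-type control array 1. Mobp, a basic protein of compact myelin, read 12.78, 12.16 and 11.95 on wild-type control arrays and 11.98, 11.85, 12.20 and 12.43 on wild-type 4b arrays. Transgenic control arrays read 11.63, 11.23, 11.04 and 10.60, and transgenic 4b arrays 11.53, 11.49, 11.80 and 11.58. The genotypes did not overlap, and the difference was -0.85 ± 0.15 (SE; limma adjusted p = 0.00506). Mobp was also called lower in striatum, at -0.36 ± 0.08 (limma adjusted p = 0.00515). There the wild-type arrays ran from 12.50 to 12.92 and the transgenic arrays from 12.12 to 12.72.

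Tspan2, a tetraspanin of early myelin, ran from 11.71 to 12.16 on wild-type cerebellar arrays and from 10.77 to 11.58 on transgenic ones, without overlap. Its difference was -0.68 ± 0.11 (SE; limma adjusted p = 0.00312). With Ugt8a, Fa2h and Mobp it made 4 of 28 genes whose transgenic arrays all lay below the wild-type arrays in cerebellum, against 0.747% of all features. In striatum and cortex 0 of the genes separated this way, with 1.97% and 2.16% of all features doing so. Mal gave -0.57 ± 0.12 in cerebellum and Mag -0.45 ± 0.12. Mog, with a difference of -0.47, Cnp (-0.19) and Mbp (-0.07) were not called, and Mbp lay near the top of the scale.

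Cldn11 forms the tight junctions between the layers of the sheath. In cerebellum its wild-type arrays ran from 14.02 over 14.18 to 14.49 and its transgenic arrays from 13.45 over 13.70 to 14.04, with a small overlap. The difference was -0.51 ± 0.10 (SE; limma adjusted p = 0.0065), and the call was lost with arrays scaled by their medians. In striatum the same difference was 0.05, and the genotypes overlapped throughout. The genotype difference was thus lower in cerebellum than in striatum by -0.56 ± 0.13 (limma adjusted p = 0.00656), the only one of the 28 genes called there, with 4.68% of all features called and 2% lower. It was not called with median scaling or with the BeadChip as a block. Striatal Cldn11 arrays reached 14.62, with the brightest feature at 15.05. Whether the striatal difference was compressed was not tested. Between cerebellum and cortex 0 of 28 were called, 10 were lower at an unadjusted p below 0.05 in limma (5.66% of all features), and 2.74% of all features were called. Between striatum and cortex 0 were called, 0 passed unadjusted, and 1.99% of all features were called.

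Among carriers, enzymes and stress proteins, 4 of 6 were called lower in cerebellum, against 2.93% of all features. Beside Car2 these were Trf, Cryab and Qdpr. Trf ran from 12.96 over 13.32 to 14.09 on wild-type cerebellar arrays and from 12.41 over 13.10 to 13.28 on transgenic ones, with overlap, and differed by -0.50 ± 0.13 (SE; limma adjusted p = 0.0355). Cryab, a small heat shock protein, differed by -0.36 and Qdpr, which regenerates tetrahydrobiopterin, by -0.35. Ndrg1 (-0.26) and the protease Adamts4 (-0.31) were not called. A second, dimmer Ndrg1 probe gave -0.45. Cdc42ep2, an effector of the small GTPase Cdc42, was the 1 of 4 called among receptors and other oligodendrocyte genes, at -0.33, and Bcas1 gave 0.17 without a call. The calls of Trf, Cryab, Qdpr and Cdc42ep2 were each lost without wild-type control cerebellum array 1, and that of Car2 was not. The gap junction genes Gjb1 and Gjc3 were not called in any region where they were tested.

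Of the transcription factors, 0 of 3 were called in cerebellum, where Sox10 gave -0.24. Olig2, a lineage factor, was called higher in transgenic striatum. It read 7.38, 7.12, 7.16 and 6.96 on the wild-type control arrays and 6.92, 6.95, 7.12 and 7.12 on the wild-type 4b arrays. It read 7.39, 7.13, 7.24 and 7.34 on the transgenic control arrays and 7.69, 7.30, 7.31 and 7.42 on the transgenic 4b arrays. The difference was 0.26 ± 0.08 (SE; limma adjusted p = 0.0286), and the levels were close to the background of up to 6.75. The call was lost in 6 of the 16 fits that each left out 1 array. Sox10 gave -0.0027 in striatum and -0.04 in cortex.

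Olig1, a lineage factor related to Olig2, read between 8.59 and 9.92 on 11 arrays and between 12.20 and 14.11 on the other 36. Each of the 11 groups of 4 held 1 low array, and the wild-type control cerebellum group of 3 held 0. In cerebellum the low arrays read 8.59 (transgenic 4b), 9.23 (transgenic control) and 9.03 (wild-type 4b). Over the 3 regions the low array was male in transgenic control, transgenic 4b and wild-type 4b mice. It was female in striatum and cortex of wild-type controls. Sox10 had a median of 11.78 on these 11 arrays and 11.69 on the other 36, and Olig2 one of 7.12 and 7.10. The single Olig1 probe gave no call in any genotype comparison, and what sets its low readings was not tested.

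**Figure D4:**
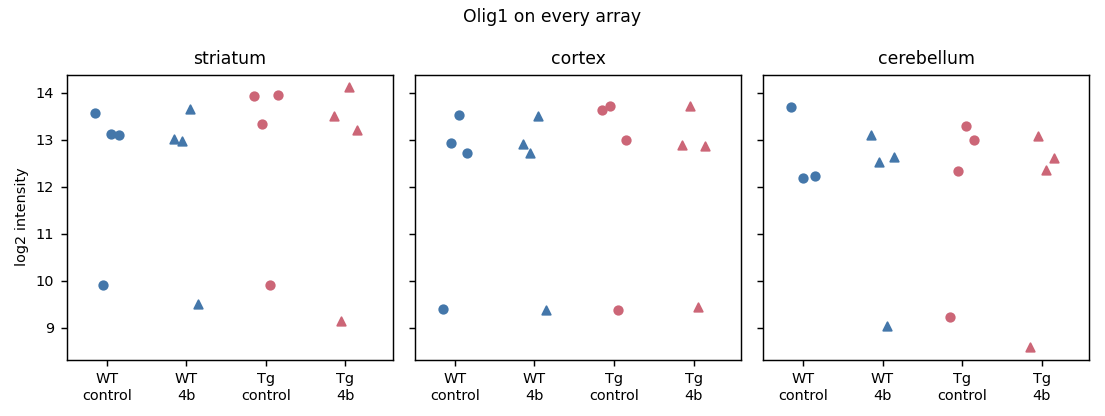
Log2 intensity of Olig1 (y axis) on every array of the 4 genotype and treatment groups (x axis; WT wild type, Tg transgenic; circles control, triangles 4b) in each region. In each group of 4, 1 array lies between 8.59 and 9.92 and the others lie at 12.20 or higher.

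Arrays of the 2 treatments are separate samples, so the genotype difference could be read in each. Among control arrays in cerebellum, 4 of 28 genes were called lower and 0 higher, with 0.357% of all features called lower and 0.332% higher (0.689% in all): Mobp (-1.17), Car2 (-1.13), Ugt8a (-1.02) and Fa2h (-0.94). Without wild-type control array 4 the 4 calls became 2, and without array 1 they became 3. With the BeadChip as a block 7 genes were called, and with only the compared groups in the fit 0 were. Under 4b in cerebellum 3 of 28 were lower, Ugt8a (-0.99), Fa2h (-0.79) and Tspan2 (-0.71), with 1.02% of all features called lower and 0.423% higher (1.44% in all). The call of Tspan2 was lost without any 1 of the 8 arrays. Differences in cerebellum were negative for 25 of 28 genes among controls and for 26 of 28 under 4b. In striatum 21 of 28 were negative among controls (median -0.14), while 18 of 28 were positive under 4b (median 0.05). In cortex 20 of 27 were negative among controls and 17 of 27 under 4b. No BeadChip held control arrays of both genotypes in striatum or in cortex. Among control arrays in striatum Fa2h (-0.60) and Mobp (-0.52) were lower, 2 of 28, with 2.34% of all features called lower and 1.44% higher (3.78% in all). Without transgenic control array 3 the 2 became 4, and without transgenic control array 1, 2 or 4 or wild-type control array 2, 3 or 4 they became 1. Under 4b in striatum Olig2 alone was called, at 0.41, with 1.58% of all features called higher and 2.93% lower (4.51% in all), and this call was lost without transgenic 4b array 1 or 4 and without any 1 of the 4 wild-type 4b arrays. In cortex 0 of 27 were called in either treatment, with 3.52% of all features called lower and 1.58% higher among controls (5.09% in all), and 3.41% lower and 2.11% higher under 4b (5.52% in all). At an unadjusted p below 0.05 in limma, 2 of the 27 were lower among cortical controls, with 9.62% of all features, and 7 under 4b, with 10.5% of all features.

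Cerebellar differences moved with other values. The mean of the 31 genes relative to the region was 0.56, 0.12 and 0.12 on wild-type control arrays 1, 2 and 4. It ran from 0.0034 to 0.16 on the wild-type 4b arrays and from -0.43 to 0.0030 on the 8 transgenic arrays. This mean counts Olig1, which read low, at 9.03, 9.23 and 8.59, on the arrays at 0.0034, 0.0030 and -0.43. Where the genotypes meet near 0 therefore depends in part on that single probe. Without wild-type control array 1 the median genotype difference of the 28 genes went from -0.45 to -0.24 among controls and from -0.37 to -0.28 averaged over treatments, and 7 genes instead of 12 were called in the average. Leaving out transgenic 4b array 1 or wild-type 4b array 1 also left 7 calls, and scaling arrays by their medians left 6. The calls of Ugt8a, Fa2h, Mobp, Car2, Tspan2, Mal and Cldn11 were made with any 1 array left out. Of the 15 fits that each left out 1 array, the call was lost in 6 for Trf, 11 for Mag, 10 for Cryab, 12 for Qdpr and 11 for Cdc42ep2, in each case also without wild-type control array 1. Of 11 tested Purkinje cell genes 6 were lower in transgenic cerebellum (median -0.55), with 2.93% of all features lower, and of 13 granule neuron genes 0 were called. Red cell genes had a median of -0.61 with 0 of 5 called, and array 4 of the wild-type controls stood 1.51 above the regional mean for them. The part of these lists in the result was not tested. The arrays lay on 6 BeadChips, named by the slide number in the labels. On each of the 3 BeadChips that held both genotypes of cerebellum the median was negative, from -0.24 to -0.21. There the difference of Ugt8a ran from -0.997 to -0.609 and that of Fa2h from -1.08 to -0.21. Each rested on 1 or 2 transgenic and 1 or 3 wild-type arrays, and treatments were matched only in part. On 1 BeadChip 1 transgenic and 1 wild-type array, both controls, gave a median of -0.23. On another, 2 transgenic and 2 wild-type arrays, all from 4b, also gave -0.23. On the BeadChip with Fa2h at -0.21 the transgenic arrays were controls and the wild-type array was from 4b. The 2 BeadChips with both genotypes of striatum gave medians of 0.06 and -0.06, and the 2 of cortex -0.10 and 0.05.

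**Figure D5:**
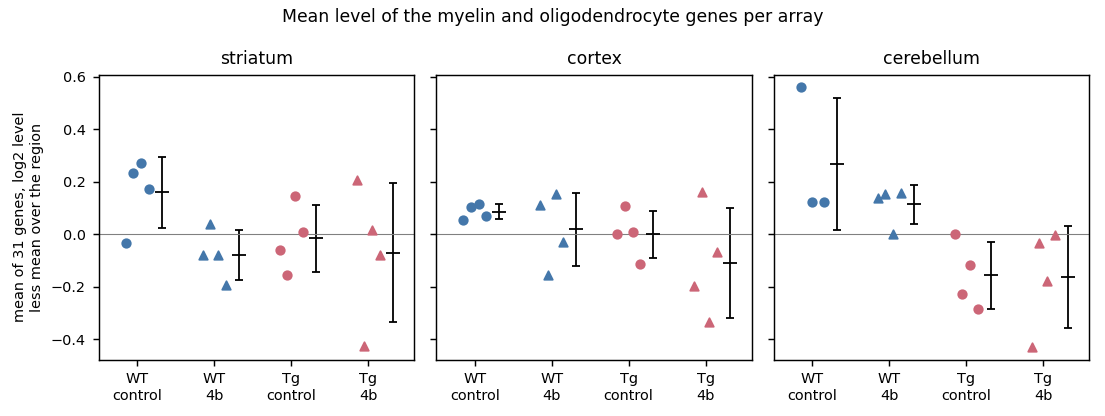
Mean log2 level of the 31 measured genes on each array less the mean over its region (y axis), for the 4 genotype and treatment groups (x axis; WT wild type, Tg transgenic; circles control, triangles 4b), with the group mean and SD as black bars. In cerebellum the lowest wild-type point and the highest transgenic point both lie near 0, and wild-type control array 1 is the highest at 0.56. Olig1, which the mean counts, read low on the arrays of both points near 0.

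The third comparison asked whether 4b changed the genes. Of the members 0 were called between 4b and control in either genotype in any region, and 0 for an interaction of genotype and treatment, with 0% of all features called in limma in each. At an unadjusted p below 0.05, wild-type striatum had 7 of 28 lower under 4b, against 1.56% of all features, with Trf at -0.54 and Mag at -0.36, and 26 of 28 differences were negative with a median of -0.25. Wild-type cerebellum had 4 of 28 lower, against 3.93% of all features, with Trf at -0.65, Car2 at -0.51, Sox10 at -0.41 and Fa2h at -0.39. The median there went from -0.18 to -0.06 without wild-type control array 1. These contrasts share control arrays with the genotype contrasts, and transgenic striatum and cortex had 0 genes past the same level. Wild-type cortex had 1 gene lower, Bcas1 at -0.36, where 4.7% of all features were lower. Transgenic cerebellum had 1 gene higher, Mobp at 0.48 (adjusted p = 0.991 in limma), where 2.95% of all features were higher. For the interaction at the same unadjusted level, 2 of 28 were higher in striatum, against 1.08% of all features. There 26 of 28 interaction differences were positive, with a median of 0.18. In cerebellum 3 of 28 were higher, against 1.38%, and the median of 0.17 went to -0.03 without wild-type control array 1. In cortex 0 passed that level.

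Further genes of the same biology were read from lists. For comparison, 2.93% of all features were called lower and 2.32% higher in cerebellum. The shares were 7.22% and 6.46% in striatum, and 7.7% and 5.87% in cortex. Of 37 other myelin and oligodendrocyte genes tested in cerebellum, 4 were lower in transgenic mice and 0 higher, with a median of -0.26. These were Il33 (-1.26), an alarmin cytokine, the protease Klk6 (-1.01), Pex5l (-0.58) and Tppp (-0.39), a tubulin polymerisation promoter. Of 38 in striatum 6 were lower, led by Klk6 (-0.85) and Il33 (-0.83), and 3 were higher, among them the lipid carrier Apod (0.47). Of 36 in cortex 6 were lower, led by Il33 (-0.72), and Apod was higher (0.56). Il33 was thus called lower in each region.

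Of the genes for synthesis of sterols, fatty acids and other myelin lipids, 11 of 35 were lower and 0 higher in cortex, and 7 of 34 were lower and 0 higher in striatum. Desaturase Fads2 gave -0.61 in cortex and -0.37 in striatum, and the sterol demethylase Cyp51 gave -0.49 and -0.38. In cerebellum 4 of 35 were lower, with Cyp51 at -0.52 and Ebp at -0.49, and Mvd was higher at 0.58. Oligodendrocyte precursor genes gave 0 of 16 calls in cerebellum. In striatum 2 of 17 were lower, the proteoglycan Bcan (-0.64) and Cacng4 (-0.58), and 3 were higher, among them Sox11 (0.54) and Bmp4 (0.51). Cortex had Bcan lower (-0.70) and Kank1 higher (0.20) among 16. Of node and paranode genes 0 of 14 were called in cerebellum, 2 of 15 in striatum and 3 of 15 in cortex, all lower. These list counts stand beside 2.93% of all features lower and 2.32% higher in cerebellum. In striatum 7.22% were lower and 6.46% higher, and in cortex 7.7% and 5.87%. Of oligodendrocyte transcription and signaling genes 2 of 22 were lower and 1 higher in cerebellum, 8 of 24 lower and 2 higher in striatum, and 7 of 24 lower and 2 higher in cortex. Hdac1, a class I histone deacetylase, was among the higher in each region (0.40, 0.59 and 0.29).

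Astrocyte genes were lower in 3 of 19 in cerebellum, 9 of 19 in striatum and 14 of 19 in cortex, with 0 higher in each. Of all features 2.93%, 7.22% and 7.7% were lower in the same order. Microglia genes had 0 of 12 called in each region.

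Within a region, most pairs of the genes correlated positively across arrays once group means were taken out. The median correlation over 465 pairs of genes was 0.31 in striatum over 16 arrays, 0.25 in cortex over 16 and 0.32 in cerebellum over 15. Pairs with a positive correlation made up 80.6%, 72.5% and 76.8%. These pairs share arrays and their normalization, and they include Olig1 and the dim Aspa, Ermn and Gpr37. Pairs of other genes were not computed, so the values have no reference. Over all 47 arrays, with each region's mean removed, Qdpr had the highest correlation with the mean of the other genes (0.86), followed by Cryab (0.82) and Ugt8a (0.79). Bcas1 (0.35), Mbp (0.18), Adamts4 (0.12), Olig2 (0.09) and Olig1 (0.04) had the lowest among genes bright enough to be tested in every region.

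Outside the group, the named genes whose levels were most like the mean of the group over the 47 arrays were Insc (correlation 0.84), Phldb1 (0.83), Prr18 (0.82), Il33 (0.81) and Kcnk13 (0.80), out of 11300 compared. Of the 10 most alike, Il33 and Kcnk13 were called lower in transgenic mice in all 3 regions. Over all features tested in each region the share was 0.609%. Only region means were removed before correlating, so genotype differences entered the choice of these 10. Their genotype calls are therefore not independent of that choice. Kcnk13, a 2-pore-domain potassium channel, gave -0.58 in striatum, -0.54 in cortex and -1.01 in cerebellum.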

How the data were processed

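Total RNA of striatum, cortex and cerebellum was measured on 47 single-colour Illumina bead arrays with 24613 probes. The authors deposited non-normalized intensity values without detection p-values, and a table of log2 values. The submitters' processing notes name BeadStudio; other steps were not given in the sources used here. Deposited log2 values differed by at most 0.0115 from the quantile-normalized log2 of the deposited intensity values. A further 1 column matched no sample and was not used. Groups came from the labels.

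Intensities were background-corrected (normexp, offset 50), quantile-normalized and reduced to 19596 features by the brightest probe of each gene, using limma 3.58.1 in R 4.3.3. Of the probes 20984 had 1 gene symbol, 1 had several and 3628 had none. Probes with a regional mean below the 40th percentile were not tested. Differences within a region were fitted in limma over its 4 groups, and differences between regions over all 47 arrays, with empirical Bayes moderation, two-sided tests and Benjamini-Hochberg adjustment over all features tested (0.05). Fits were tested on simulated data. Alternatives were the authors' log2 values, median scaling, no filter, the mean of all probes, BeadChip block, array weights, sex, replicate block, the compared groups alone, and leaving out each array. The number of arrays limits the precision. Most same-numbered arrays did not deviate together (a correlation over 0.1 in 6 of 24, 6 of 24 and 5 of 21 pairs within striatum, cortex and cerebellum, and in 15 of 46 between regions, 21 of which were of unlike sex). In 1 pair of groups, wild-type 4b striatum and cortex, all 4 pairs lay over 0.1, from 0.31 to 0.53. The numbers were not used as pairs.

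The genes and lists were chosen with earlier results of these data known. All 32 genes could be named; array values are given for up to 6 called genes per comparison by smallest p and for genes whose order differs, and list genes are named where called. The 10 other genes most like the group were those with the highest correlation with its mean. Sequences are from RefSeq. Figures used matplotlib.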

Additional observations from a re-analysis of the deposited data

Results flagged for a closer look

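Of 82 groups of 4 arrays examined for 1 array far from the other 3, 4 were flagged, and chance flags about 1 in 20. The mean level of the 31 genes relative to the region was 0.00344 on wild-type 4b cerebellum array 3, against 0.14 to 0.16 on the other 3. This mean counts Olig1, which read 9.03 on the same array, so the 2 flags are not separate. Car2 read 11.86 on wild-type control cortex array 4, against 12.17 to 12.22. Olig1 read 8.59 on transgenic 4b cerebellum array 1, against 12.35 to 13.08, and 9.03 on wild-type 4b cerebellum array 3, against 12.52 to 13.11. Cldn11 was flagged because its genotype difference was lower in cerebellum than in striatum by a test of the difference itself, at -0.56.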

How the results depend on the processing

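Under the alternatives no call of a member turned its direction: of 1183 recomputed calls 959 stayed past the threshold and 224 did not. Of 511 recomputed counts 442 lay within 1.5 times the reported count, and of 511 recomputed medians 508 moved by less than 1 SD. The 442 include counts of 0 that stayed 0, as in every contrast of 4b with control and every interaction. All 69 counts that moved came from other comparisons. The causes of the exceptions were not tested. With median scaling the calls by genotype were 0 in control striatum, 0 in 4b striatum, 2 in striatum averaged over treatments and 6 in cerebellum averaged, and 9 between striatum and cortex. With the BeadChip as a block they were 0 in 4b striatum, 1 in averaged cortex and 7 in control cerebellum, 8 between striatum and cortex and 7 between cerebellum and striatum. Cldn11's difference between cerebellum and striatum was not called under median scaling or the BeadChip block (0 calls each), while array weights gave 3 calls there and sex as a covariate 2. Array weights gave 6 calls in 4b cerebellum, 5 between cerebellum and striatum and 3 for the genotype difference between cerebellum and cortex. Sex as a covariate gave 0 calls in 4b striatum and 1 in 4b cortex, and no filter gave 0 in 4b striatum. Fits to the compared groups alone gave counts of 0 in 4b striatum, 0 in control cerebellum, 8 in 4b cerebellum, 3 between cerebellum and cortex and 6 between cerebellum and striatum.

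With the replicate block, 10 genes were called in averaged cerebellum, 4 in striatum and 3 in cortex, and 1 for the genotype difference between cerebellum and cortex in place of 0; Ugt8a in averaged striatum, Ugt8a in control cerebellum, Tspan2 in 4b cerebellum, and Cryab and Qdpr in averaged cerebellum lost their calls. Whether arrays that share a number share more was not settled: all 4 same-numbered pairs of wild-type 4b striatum and cortex correlated over 0.1, and the other pairs of groups did not do so throughout.

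Leaving out each array in turn gave 1 to 4 calls in control striatum, 0 to 1 in 4b striatum, 3 to 6 in averaged striatum, 0 to 3 in 4b cortex, 2 to 4 in averaged cortex, 2 to 5 in control cerebellum, 2 to 2 in 4b cerebellum and 7 to 13 in averaged cerebellum. It gave 9 to 17 between striatum and cortex, 4 to 5 between cerebellum and cortex, 4 to 12 between cerebellum and striatum, 0 to 3 for the genotype difference between cerebellum and cortex and 1 to 3 for that between cerebellum and striatum. The median ran from -0.55 to -0.24 in control cerebellum, from -0.027 to 0.23 for the cerebellar interaction, and from 0.43 to 0.60 between striatum and cortex. The lowest counts came without transgenic control array 1 in control and averaged striatum (1 and 3), without transgenic control array 4 in averaged cortex (2), without wild-type control cerebellum array 4 in control cerebellum (2) and between cerebellum and striatum (4), and without wild-type control striatum array 2 between striatum and cortex (9). The highest count in 4b cortex (3) came without transgenic 4b array 2.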
